A study of Homo sapiens with 8 samples.

Results

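The 4 untreated control cultures of MDA-MB-231, an established human breast cancer cell line of the triple-negative class, were described by their RNA-Seq profiles. They were 4 of the 8 libraries of the series, chosen by their sample titles, and each represented cells kept for 48 hours in low-glucose medium with PBS, the vehicle. The other 4 libraries, from cells given 1 µM CML (carboxymethyllysine, an advanced glycation end product), were not used. All cultures of the series were of a single cell line, and no label or method states that the 4 control cultures were grown on separate days, so the spread between them may be partly technical. No groups were compared, and no significance test was run: levels are given with their SD over the 4 cultures (n = 4).

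The authors deposited CPM values, that is, reads of a gene relative to all reads of the library, scaled to a common size. The table held 17649 gene symbols. The low values fell on steps worth 1 read each, and these steps gave 16559917 to 17729515 estimated reads per control library, so that 1 read was worth 0.0570 to 0.0605 CPM. A gene listed at 0 in a library could still have been present at up to 3 reads, which is 0.171 to 0.181 CPM, a limit that covers counting error only. Because longer transcripts yield more reads, levels of different genes were compared as CPM per kilobase of exon. In bulk RNA, fewer expressing cells and less RNA per cell cannot be told apart.

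Breast epithelium consists of luminal cells, which carry hormone receptors, simple keratins and E-cadherin, and of basal cells, which contact the basement membrane. Claudin-low cancers, a class to which MDA-MB-231 is commonly assigned, are known for low levels of claudins and E-cadherin and for mesenchymal genes, which encode the cytoskeleton and matrix proteins of migratory cells. Transcription factors of the SNAI, ZEB and TWIST families are known to repress epithelial genes through E-box sequences.

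The marker genes did not go against the label. VIM (vimentin, the intermediate filament of mesenchymal cells, chr10:17228241-17237593, GRCh38) stood at 4106, 4014, 4083 and 4069 CPM in controls 1 to 4. Its coefficient of variation (CV, the SD as a percent of the mean) was 0.962%. EGFR, the epidermal growth factor receptor (chr7:55019017-55211628), was at 893, 897, 947 and 956 CPM. CD44, the hyaluronan receptor (chr11:35139171-35232402), was at 803, 816, 824 and 883 CPM. These 3 genes were abundant in every culture. KRT18, a keratin of simple epithelia (chr12:52948855-52952906), was also abundant, at 337, 310.5, 347 and 324 CPM. ERBB2, the HER2 receptor (chr17:39688094-39728658), was lower, at 54.4, 47.2, 52.4 and 44.1 CPM. CDH1, which encodes E-cadherin (chr16:68737292-68835537), was at 0.954, 0.650, 0.786 and 0.570 CPM, or 10 to 16 reads per library. PGR, the progesterone receptor gene (chr11:101029624-101129813), was at 0, 0, 0 and 0.114 CPM, under 3 reads in every library. ESR1, the estrogen receptor gene, had no row in the table used here, so that no value is given for it.

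Per kilobase of exon, the order of the 7 markers was VIM (786 ± 7.56 CPM per kb, SD, n = 4), KRT18 (107 ± 5.13), CD44 (83.2 ± 3.54), EGFR (57.9 ± 2.06), ERBB2 (4.7999 ± 0.456), CDH1 (0.122 ± 0.0277) and PGR (0.00194). No 2 neighbours in this order overlapped across cultures. With the longest transcript as the length, however, KRT18 (158 ± 7.55 CPM per kb) and CD44 (153 ± 6.51) did not differ beyond their spread. VIM lay at percentile 99.9 of all genes with a known exon length and ERBB2 at percentile 61.6, whereas CDH1 lay at percentile 17.7. The cells thus combined a keratin of simple epithelium with vimentin at the top of the scale, and E-cadherin mRNA was close to the limit of detection.

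**Figure D1:**
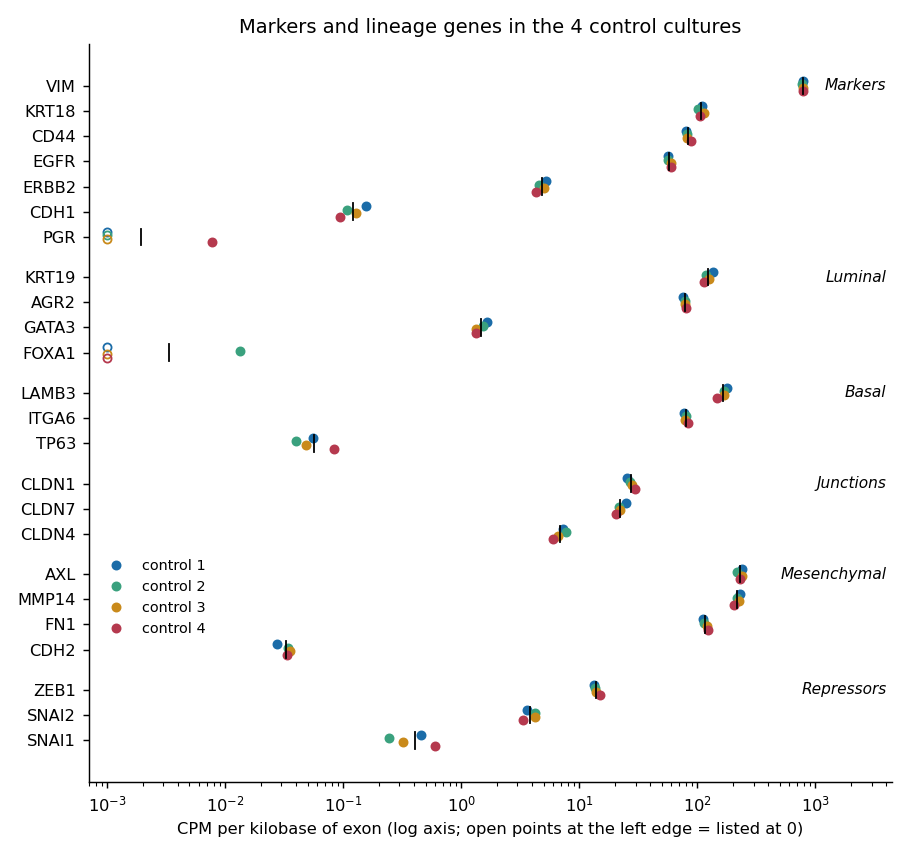
Level of the 7 marker genes and of 17 lineage genes in each of the 4 control cultures, as CPM per kilobase of exon on a log axis; filled points are cultures, bars are means, and open points at the left edge stand for cultures in which the gene was listed at 0. VIM, AXL and MMP14 sit to the right and CDH1, SNAI1 and CDH2 to the left. Above 1 CPM per kb the spread between cultures is small beside the whole range of levels drawn. Genes at similar levels, such as FN1 and KRT19, overlap across cultures.

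Most of the table was expressed. Of the 17649 genes, 12599 (71.4%) reached 1 CPM or more in all 4 cultures and 9125 (51.7%) reached 10 CPM. A level of 100 CPM was reached by 2079 (11.8%) and 1000 CPM by 78. At the other end, 970 genes (5.5%) were listed at 0 in all 4 cultures and 1686 stayed under 3 reads in all 4. These shares are the background for the counts of list members given below. None of 168 genes that every cell uses (82 cytoplasmic ribosomal proteins, 37 proteasome subunits, 12 subunits of RNA polymerase II and 37 subunits of complex I) was listed at 0, and all 168 reached 1 CPM in every culture. By RefSeq class, 11231 of 13776 protein-coding genes (81.5%) and 301 of 864 lncRNA genes (34.8%) reached 1 CPM in all 4. The table retained genes by a rule that could not be read from its values, so these shares apply to the genes with a row.

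The 10 most abundant genes held 7.46% to 7.73% of all CPM and the 100 most abundant held 20.3% ± 0.123 (SD, n = 4). EEF1A1, the elongation factor that brings aminoacyl-tRNA to the ribosome, was the most abundant gene at 25591, 25720.1, 26241 and 26614 CPM, although closely related copies elsewhere in the genome make its count uncertain. The 15 genes of the mitochondrial genome held 2.11%, 2.15%, 2.21% and 2.42% of CPM in controls 1 to 4, highest in control 4. The 82 cytoplasmic ribosomal protein genes held 4.96%, 4.79%, 4.66% and 4.53%, highest in control 1. Control 4, with the highest mitochondrial share, thus had the lowest ribosomal protein share.

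Protein-folding genes of the endoplasmic reticulum stood directly behind EEF1A1. HSPA5 (BiP, the main chaperone of this compartment) was the second in abundance at 11402, 11985, 11650.2 and 12245 CPM. HSP90B1 (GRP94, its HSP90 paralog) followed at 6941, 7391, 7132 and 7693 CPM. CALR and CANX, the lectin chaperones calreticulin and calnexin, had means of 6965 ± 143 and 3959 ± 169.8 CPM. HYOU1, a nucleotide exchange factor for BiP, was at 3765 ± 149.6 CPM. Together these 5 genes held 3.39% ± 0.0526 (SD, n = 4) of all CPM. All 25 members of a list of ER chaperones and stress-response genes, compiled after these values were seen, reached 10 CPM in every culture, and 21 reached 100 CPM. Over all genes in the table, 51.7% reached 10 CPM and 11.8% reached 100 CPM. The list included the folding oxidoreductases P4HB (1483 CPM), PDIA4 (1337 CPM) and PDIA3 (1278 CPM) and the transcription factors ATF4 (535 CPM), DDIT3 (CHOP, 221 CPM) and XBP1 (213 CPM), which act in the unfolded protein response. TRIB3, a target of ATF4 and CHOP, was at 485, 483, 449 and 425 CPM, and ASNS, asparagine synthetase, at 236, 234, 228 and 263 CPM. The median level of the 25 genes was 109 CPM per kb, beside 2.57 CPM per kb over all genes with an exon length.

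Per kilobase and outside ribosomal, histone and mitochondrial genes, EEF1A1 (2588 CPM per kb), CALR (2486), TMSB10 (2072), HSPA5 (1810.2) and FTL (1631) led. TMSB10 encodes thymosin beta-10, which binds actin monomers, and FTL is the light chain of ferritin, the iron store. S100A6, a calcium-binding protein, followed at 1119 ± 75.8 CPM per kb. VIM was the tenth in this order and HMGA1, a chromatin architectural protein, the eleventh at 758 ± 60.8 CPM per kb. SCD, which desaturates fatty acids, was also among the 20 highest by both scales, at 2514 ± 90.5 CPM.

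The luminal list had 34 members, of which 26 had a row and 18 (69.2%) reached 1 CPM in all 4 cultures, close to the 71.4% over all genes. KRT18, described above, and KRT19 were the most abundant members. KRT19 was at 317, 278, 296 and 264 CPM and KRT8, the partner of KRT18, at 239, 222, 208 and 183 CPM. AGR2, a disulfide isomerase of secretory epithelia, stood at 209, 219, 217 and 224 CPM. The transcription factors of the list ranged widely. XBP1, a factor of secretory cells, was at 216, 208, 205 and 223 CPM and SPDEF, an ETS factor of luminal and goblet cells, at 60.2, 60.2, 51.2 and 44.7 CPM. FOXA1, a pioneer factor, was at 0, 0.0591, 0 and 0 CPM, under 3 reads in every library, and GATA3 was at 5.61, 5.203, 4.54 and 4.502 CPM. EPCAM, an epithelial adhesion molecule, was at 12.7, 15.96, 12.8 and 15.4 CPM. TFF1, a secreted estrogen target, was at 0.477, 0.650, 0.786 and 0.570 CPM. ESRP1 and ESRP2, the epithelial splicing regulators, remained at 3.196 ± 0.502 and 7.46 ± 0.583 CPM. The median of the members was 1.44 CPM per kb.

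Of 24 basal genes, 18 had a row and 12 reached 1 CPM in all 4. The abundant members encode parts of the laminin-332 anchorage: LAMB3 was at 829.7, 779, 779.96 and 684 CPM and the laminin receptor subunit ITGA6 at 512, 538, 527 and 552 CPM. LAMA3, another chain of laminin-332, was lower at 46.3 ± 1.36 CPM, or 3.19 CPM per kb beside 165 CPM per kb for LAMB3. The basal keratin KRT17 was at 0.775, 0.769, 0.605 and 0.456 CPM and TP63, the basal lineage factor, at 0.417, 0.296, 0.363 and 0.627 CPM. KRT5 and KRT14, the defining basal keratins, had no row. Of 54 keratin genes, 12 had a row, and 6 of them exceeded 10 CPM in every culture: KRT18, KRT19, KRT8, KRT7 (131 CPM), KRT80 (87.7 CPM) and KRT10 (16.8 CPM). KRT81 (5.797 CPM) and KRT86 (3.13 CPM), hair keratins with near-identical sequence, cannot be told apart with certainty.

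Claudins, which seal tight junctions, differed widely in level. Of 36 claudin and tight junction genes, 20 had a row and 15 (75%) reached 1 CPM in all 4, close to the 71.4% over all genes. The median of the 20 was 2.52 CPM per kb, beside 2.57 CPM per kb over all genes with an exon length. CLDN1 was at 92.5, 98.1, 101 and 109 CPM and CLDN12 at 132, 136, 140.5 and 148 CPM. CLDN7, an epithelial claudin used with others to define the claudin-low class, was at 61.8, 54.4, 55.1 and 51.5 CPM, and CLDN4 at 34.5, 36.004, 31.3 and 28.3 CPM. CLDN3, the third claudin of that definition, had no row. OCLN (occludin) was at 56.3 CPM, and the scaffold TJP1 (ZO-1) at 127 CPM, whereas CGN (cingulin) and TJP3 (ZO-3) were at 1.18 and 0.754 CPM. Per kilobase, CLDN7 (22.3 ± 1.75 CPM per kb) was above CLDN4 (6.92 ± 0.726) and above CDH1 (0.122 ± 0.0277). Among all genes with a known exon length, CLDN1 lay at percentile 91.6, CLDN7 at 89.5 and CLDN4 at 69.1.

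The inner parts of cell-cell contacts were expressed. Of 23 adherens junction and desmosome genes, 18 had a row and 16 (88.9%) reached 1 CPM, beside 71.4% over all genes. The catenins CTNNA1 (761 ± 25.5 CPM), CTNNB1 (374 ± 17.8 CPM) and CTNND1 (187 ± 6.51 CPM), which link cadherins to actin, were all above 100 CPM in every culture. DSP (desmoplakin) and DSG2 (desmoglein-2) were at 208 and 177 CPM. CDH2, which encodes N-cadherin, was no higher than CDH1, at 0.239, 0.296, 0.302 and 0.285 CPM. CDH11 (osteoblast cadherin) stood at 165, 163, 171 and 175 CPM, and CDH3 (P-cadherin) was at 1.71 CPM. Among the cadherins named here CDH11 was therefore the highest, on the per-kilobase scale too (12.7 ± 0.417 CPM per kb).

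The mesenchymal list had 43 of 45 members with a row. Of these, 30 (69.8%) reached 1 CPM in all 4 cultures, close to the 71.4% over all genes. At 100 CPM there were 15, where 11.8% of all genes passed. The median was 4.25 CPM per kb, beside 2.57 CPM per kb over all genes with an exon length. AXL, a receptor kinase, stood at 1217, 1122, 1217 and 1189 CPM and MMP14, the membrane-anchored collagenase, at 1066, 994, 1034 and 949.9 CPM. NT5E (CD73, which makes adenosine) was at 688, 707, 728 and 752 CPM, MSN (moesin) at 1353, 1328, 1416 and 1427 CPM and FN1 (fibronectin) at 1938, 1958, 2072 and 2113 CPM. The CVs of these 5 lay between 3.48% (MSN) and 4.95% (MMP14), each more than 3 times the CV expected from counting reads alone. The collagen crosslinkers LOX and LOXL2 were at 335 ± 19.7 and 442 ± 30.5 CPM. In contrast, the fibroblast-type collagens COL1A2 and COL3A1 were at 0, 0.118, 0 and 0.114 CPM and 0, 0, 0.0605 and 0 CPM, and SPARC, a matrix protein of fibroblasts, was at 0.119, 0.414, 0.302 and 0.114 CPM. TAGLN and MYL9, contractile genes, were at 2.901 ± 0.512 and 20.1 ± 2.63 CPM. Members of the same groups were higher, with the fibrillar collagen COL5A1 at 103, 92.995, 94.4 and 83.6 CPM and the actin-binding genes CALD1 (caldesmon) and TPM1 (tropomyosin) at 118 ± 6.61 and 67.6 ± 3.53 CPM. Neither group was therefore uniformly low or high.

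The epithelial repressors differed from each other by more than their spread. ZEB1 was at 115, 119, 119.7 and 130.1 CPM and its paralog ZEB2 at 23.6, 27.02, 24.4 and 28.6 CPM. SNAI2 (SLUG) was at 11.8, 13.9, 13.9 and 11.1 CPM, whereas SNAI1 (SNAIL) was at 0.775, 0.414, 0.544 and 1.03 CPM. TWIST1 and TWIST2 were listed at 0 in all 4 cultures. Per kilobase, ZEB1 (13.97 ± 0.747 CPM per kb) was above SNAI2 (3.86 ± 0.445), ZEB2 (0.990 ± 0.0882) and SNAI1 (0.405 ± 0.158). PRRX1, another factor of mesenchymal cells, was at 2.95 CPM. Of 59 other lineage factors, 46 had a row and 31 reached 1 CPM in all 4. The 3 highest per kilobase were the AP-1 subunit FOSL1 (151 ± 4.77 CPM per kb), ETS1 (73.8 ± 2.77) and the AP-1 subunit JUND (26.7 ± 4.22). FOSL1 was at 294, 280.2, 290.1 and 274 CPM, while FOS, the immediate-early subunit, was at 3.101, 3.49, 2.96 and 2.74 CPM. GATA4, GATA5, PAX2, PAX6, PAX7, SOX8 and SOX18, factors of other lineages, were listed at 0 in all 4 cultures. In contrast, 24 members of the list reached 10 CPM in every culture, among them FOXA2 (36.2 CPM), RUNX2 (33.3 CPM), GATA6 (24.3 CPM) and PAX8 (13.2 CPM). The GATA and PAX families were thus not uniformly silent.

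**Figure D2:**
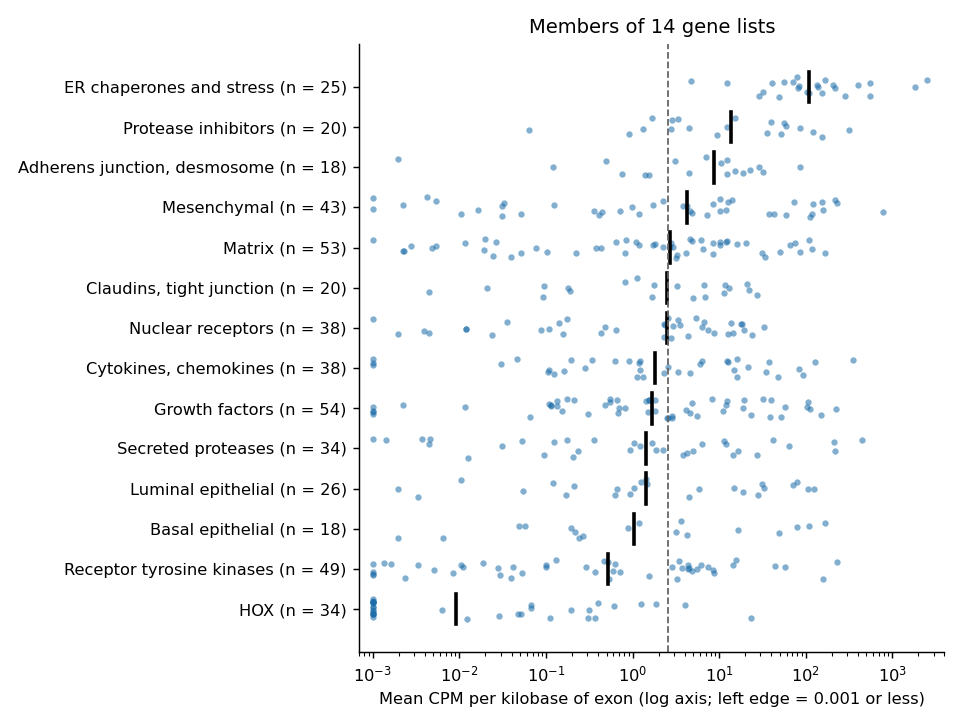
Level of each member with a row of 14 gene lists, as mean CPM per kilobase of exon over the 4 cultures on a log axis, with members at 0.001 or less drawn at the left edge and CD24, which has no exon length, left out; the black bar is the median of each list and the dashed line the median of all genes, 2.57 CPM per kb. Among the 14 lists drawn, the ER chaperone list lies furthest right, with a median of 109 CPM per kb, and the HOX list furthest left. The ER chaperone list was compiled after the values were seen.

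Of 48 nuclear receptors, which are transcription factors switched by steroids and other lipids, 38 had a row and 28 (73.7%) reached 1 CPM in all 4 cultures. Per kilobase the order began with RXRB (32.6 ± 1.05 CPM per kb), the common partner of many nuclear receptors, followed by the clock repressor NR1D2 (24.1 ± 2.18). The glucocorticoid receptor NR3C1 (19.1 ± 1.13 CPM per kb), the mineralocorticoid receptor NR3C2 (18.5 ± 0.934) and PPARD (17.7 ± 0.917) came next, and the cultures of these 3 overlapped. NR3C1 was at 162, 173, 178 and 187 CPM and NR3C2 at 118, 116, 124 and 129.7 CPM. ESR2, estrogen receptor beta, stood far below at 0.477, 0.473, 0.0605 and 0.114 CPM. GREB1, an estrogen target named after its value was seen, was at 0.337 CPM. NR0B1 (DAX1) was listed at 0. The mRNAs of the corticosteroid receptors were thus far above those of ESR2 and PGR.

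Of 58 receptor tyrosine kinases, 49 had a row and 29 (59.2%) reached 1 CPM in all 4 cultures, beside 71.4% over all genes. The first 4 of the order per kilobase did not overlap in any culture: AXL (231 ± 8.73 CPM per kb), EPHA2 (160.3 ± 12.5), EGFR (57.9 ± 2.06) and MET (43.8 ± 2.98). EPHA2, an ephrin receptor, was at 709.7, 677, 679.5 and 589.5 CPM, and MET, the receptor of hepatocyte growth factor, at 295, 307, 317 and 346 CPM. MERTK, of the AXL family, and PTK7 followed at 15.6 and 14.4 CPM per kb and overlapped each other, while the third family member TYRO3 was at 0.599 CPM per kb. ERBB2 was the twelfth, and its cultures overlapped those of EPHB4 above it and of KDR below it. ERBB3, the HER3 receptor, was at 7.26 CPM and ERBB4 had no row. The PDGF receptors PDGFRB and PDGFRA were at 3.79 ± 0.487 and 0.104 ± 0.0581 CPM, and KIT was at 0.119 CPM. RET, EPHA3, INSRR and AATK were listed at 0 in all 4 cultures. GAS6, the ligand of AXL, was itself at 250.1, 246, 231 and 208 CPM, whereas HGF, the ligand of MET, was listed at 0.

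Receptors for advanced glycation end products bear on the agent used in the rest of the series. Of 12 such genes, 10 had a row and 7 reached 1 CPM in all 4. DDOST, LGALS3 (galectin-3) and PRKCSH, which form a binding complex of these products but have other housekeeping roles, were at 535, 129.9 and 289 CPM. AGER (RAGE), the signalling receptor, was at 2.98, 1.89, 3.33 and 2.56 CPM, or 32 to 55 reads per library. The pattern receptor TLR4 was far more abundant than AGER on the CPM scale, at 122, 133, 139 and 138 CPM, and per kilobase (9.999 ± 0.582 beside 1.297 ± 0.297 CPM per kb). The scavenger receptors CD36 and MSR1 were at 0.0728 and 0.0447 CPM.

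Secreted factors were unevenly expressed. Of 72 cytokines and chemokines, 38 had a row and 27 (71.1%) reached 1 CPM in all 4 cultures, with a median of 1.81 CPM per kb. CXCL8 (interleukin-8, which attracts neutrophils) led at 872, 913, 892 and 955 CPM. CSF1, the growth factor of macrophages, was at 702, 655, 716 and 642 CPM, and CSF2 (GM-CSF) at 71.7, 69.9, 64.1 and 58.2 CPM. The related neutrophil chemokines CXCL1, CXCL2 and CXCL3 were at 126 ± 5.72, 67.6 ± 1.82 and 35.8 ± 0.736 CPM, all below CXCL8. IL6 was at 62.5, 63.7, 62.3 and 65.3 CPM, LIF, a cytokine of the same family, at 152, 144, 151 and 137 CPM and IL11 at 43.2 ± 3.01 CPM. The T cell and monocyte chemokines were low: CCL2 was at 0.119, 0.414, 0.363 and 0.342 CPM, CCL5 at 0.179, 0.118, 0.181 and 0.114 CPM and CXCL10 at 1.37, 1.596, 1.09 and 1.71 CPM. CXCL12, CXCL6 and CCL7 were listed at 0, and TNF and IFNB1 had no row.

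Of 66 growth factors and related secreted regulators, 54 had a row and 39 (72.2%) reached 1 CPM. The matricellular proteins CCN1 and CCN2 were at 824, 824, 818 and 813 CPM and 259.9, 260.1, 255 and 268 CPM. DKK1, a secreted inhibitor of WNT signalling, was at 236, 247, 232 and 238 CPM and VEGFA, the angiogenic factor, at 453, 448, 471 and 463 CPM. The EGFR ligands stood in the order HBEGF (58.2 ± 1.79 CPM per kb), AREG (19.4 ± 1.4999), TGFA (8.23 ± 0.283), EREG (4.87 ± 0.187), BTC (0.693 ± 0.147) and EGF (0.114 ± 0.0173), so that EGFR mRNA was accompanied by mRNA of its ligand HBEGF at 168, 175, 181 and 172 CPM. TGFB2 was at 74.002 ± 3.34 CPM and TGFB3 at 0.696 ± 0.212 CPM, while TGFB1 had no row. FGF10, FGF19, HGF and BMP7 were listed at 0 in all 4 cultures.

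Among 43 secreted proteases, 34 had a row and 22 (64.7%) reached 1 CPM, beside 71.4% over all genes. MMP1 (interstitial collagenase) was the highest per kilobase, at 452 ± 12.4 CPM per kb, and stood at 1193, 1238, 1250.3 and 1274 CPM. MMP14 (219 ± 10.8 CPM per kb) and the lysosomal protease CTSD (209 ± 24.6) were next and did not differ beyond their spread. The gelatinases were low, with MMP2 at 0.0596, 0.118, 0.242 and 0.171 CPM and MMP9 at 0.537, 0.591, 0.544 and 0.513 CPM. The protease PLAU (urokinase) was at 187 ± 7.802 CPM and its receptor PLAUR at 179.99 ± 6.66 CPM. ADAMTS2 was listed at 0. Of 26 protease inhibitors, 20 had a row, and 17 (85%) reached 1 CPM, beside the same 71.4%. CST1 (cystatin SN, an inhibitor of cysteine proteases normally made in salivary glands) led at 317 ± 24.6 CPM per kb and 289.7, 253, 293 and 256 CPM. TIMP1, TIMP2 and TIMP3, inhibitors of the matrix metalloproteinases, were at 176 ± 7.82, 535 ± 8.697 and 258 ± 7.61 CPM.

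Of 54 matrix genes, 53 had a row and 37 (69.8%) reached 1 CPM, with LAMB3 and fibronectin at the top. LAMB3 stood at 165 ± 13.1 CPM per kb and FN1 at 117 ± 4.96 CPM per kb, with FN1 above LAMB3 when the longest transcript was the length (220.3 against 178 CPM per kb), and SRGN, the proteoglycan serglycin, was at 85.5 ± 2.78 CPM per kb. THBS1 (thrombospondin-1) and TNC (tenascin-C) were at 310.01 ± 10.5 and 298 ± 14.1 CPM. COL13A1, a transmembrane collagen, was at 200.5, 188, 189.6 and 163 CPM, above COL1A1 at 10.9, 10.3, 11.4 and 9.63 CPM, and this order held per kilobase (16.1 ± 1.36 beside 1.17 ± 0.0823 CPM per kb). NID1, which bridges laminin and collagen IV, was listed at 0.

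Nutrient and growth genes were next described. SLC2A1, the glucose transporter GLUT1, was at 431, 399, 420.5 and 399 CPM and SLC2A3 (GLUT3) at 98.5 ± 3.95 CPM. The lactate exporter SLC16A3 (MCT4) was at 299, 283, 246 and 217 CPM, and SLC16A1 (MCT1) at 4.47, 5.26, 5.68 and 6.21 CPM. Both lactate dehydrogenase subunits were abundant, with LDHA at 519.7 ± 15.3 CPM and LDHB at 370.2 ± 10.9 CPM. Of 19 transport and lactate genes with a row, 17 (89.5%) reached 1 CPM, beside 71.4% over all genes. All 14 proliferation genes reached 10 CPM in every culture, MKI67 at 124 ± 5.599 CPM and TOP2A at 151 ± 10.5 CPM among them. Over all genes in the table, 51.7% reached that level. Of 18 stem-like genes, 13 had a row and 10 reached 1 CPM, and LIN28B was listed at 0. POU5F1, the only one of 9 pluripotency genes with a row, was at 0.270 CPM.

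Most driver genes of growth signalling and the cell cycle were expressed. NRAS, a small GTPase of growth signalling, was at 139.8, 137, 143 and 159.6 CPM. CCND1 (cyclin D1) was at 363, 355, 342 and 345 CPM, CDK4 at 159 ± 5.77 CPM and MYC at 269 ± 12.7 CPM. Of 25 driver genes 22 (88%, beside 71.4% over all genes) reached 1 CPM in all 4 cultures. The other 3, CDKN2A, CDKN2B and MTAP, were listed at 0 in all 4. CDKN2A and CDKN2B encode inhibitors of CDK4 and CDK6, and MTAP is an enzyme of methionine salvage. Of 34 surface drug targets, 28 had a row and 25 (89.3%) reached 1 CPM, beside the same 71.4%. CD274 (PD-L1) was at 24.98, 27.5, 28.2 and 29.1 CPM, L1CAM at 159.8, 151, 165 and 142 CPM and MSLN (mesothelin) at 48.7, 47.6, 44.2 and 36.6 CPM.

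The 3 genes at 0 on chromosome 9 belonged to a longer block. Ordered by RefSeq position (GRCh38), HACD4, KLHL9, MTAP, CDKN2A, CDKN2B-AS1, CDKN2B, DMRTA1, LINC01239 and ELAVL2 were 9 consecutive genes of the table, all listed at 0 in all 4 cultures, over chr9:20999509-23850601, or 2851 kb. Immediately before this block, FOCAD (chr9:20655625-20995950) was at 2.09, 3.61, 2.42 and 3.65 CPM, low but above 3 reads in every library, and further out RPS6 was at 824, 824, 819.8 and 811 CPM. Within 1 Mb of CDKN2A, 9 genes had a row and 8 were at 0. The data hold RNA only, and copy number was not measured.

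A second block lay in the HOXA cluster, whose homeobox genes set position along the body axis. From HOXA2 to HOXA11-AS, 10 consecutive genes (chr7:27100354-27189293, 88.9 kb) stayed under 3 reads in all 4 cultures, and 8 of them were at 0. Outside the cluster, SKAP2 on one side and HIBADH on the other were expressed, SKAP2 at 47.6 to 53.6 CPM and HIBADH at 73.6 to 79.6 CPM. Within the cluster HOXA13 was at 0.417, 0.236, 0.0605 and 0.342 CPM, or 1 to 7 reads. In the HOXC cluster 7 consecutive genes, HOXC13-AS to HOXC10, were also under 3 reads in every library (chr12:53935328-53990279), 6 of them at 0. Of 34 HOX genes with a row only 7 (20.6%) reached 1 CPM in all 4, and 16 were at 0. Over all genes in the table, 71.4% reached 1 CPM and 5.5% were at 0. HOXB9 was the single HOX gene above 10 CPM, at 61.7, 57.996, 59.3 and 60.3 CPM, and its CV of 2.58% was near that of counting. HOXD1 (7.52 CPM) and HOXB7 (2.86 CPM) came next.

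**Figure D3:**
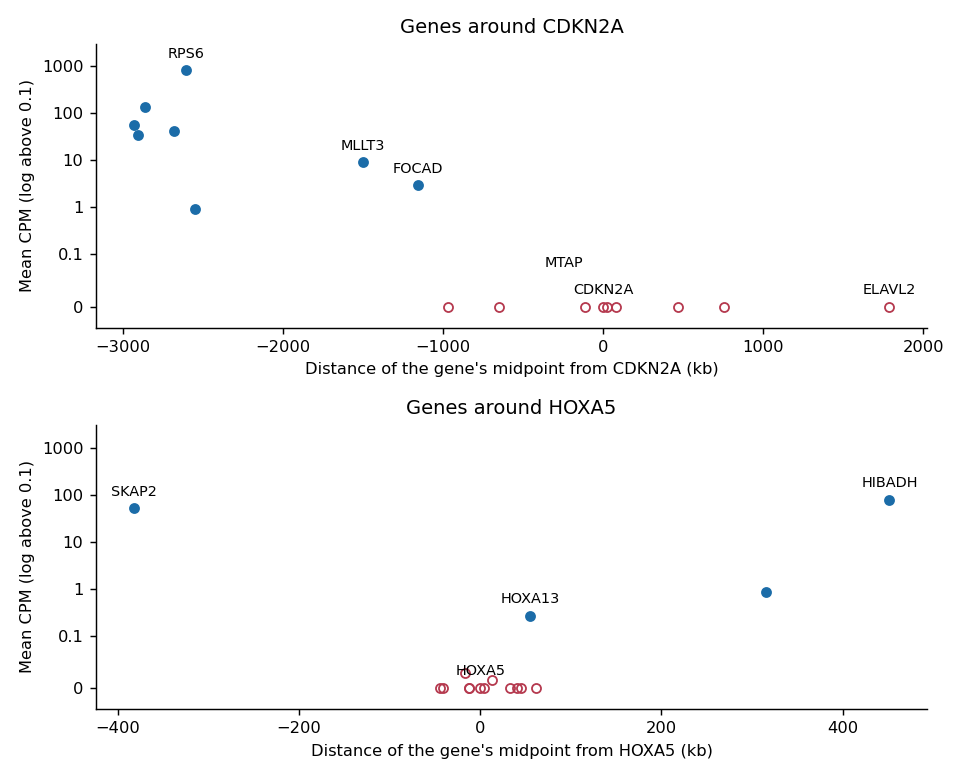
Mean CPM over the 4 cultures, on a scale linear below 0.1 CPM and logarithmic above, for genes of the table by distance of the gene's midpoint from CDKN2A (top) and from HOXA5 (bottom); filled points are above 3 reads in at least 1 culture and open points are under 3 reads in all 4. In the upper panel 9 consecutive genes lie at 0 to the right of FOCAD, and in the lower panel the 10 genes from HOXA2 to HOXA11-AS, with HOTAIRM1 before them and HOTTIP beyond HOXA13, lie at or near 0 between SKAP2 and HIBADH.

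Other silent genes were found among imprinted genes, which are expressed from 1 parental copy. This list was compiled after the values were seen. Over all genes in the table, 71.4% reached 1 CPM in all 4 cultures and 5.5% were listed at 0. Of the 33 listed imprinted genes with a row, 17 (51.5%) reached 1 CPM in all 4 cultures. The 10 listed at 0 were SNRPN, SNURF, NDN, PEG3, MIMT1, MEG3, MEG8, MEG9, DIO3 and KCNQ1. Several were neighbours, since MEG3, MEG8, MEG9 and DIO3 lie in a run of 6 silent genes on chromosome 14 and NDN, SNRPN and SNURF in a run of 5 on chromosome 15. SNRPN and SNURF share a transcript, so they do not count as separate observations. Other imprinted genes were abundant, such as GNAS (862 CPM), GRB10 (178 CPM) and PEG10 (113 CPM). Single genes at 0 in all 4 cultures, picked after their values were seen, were MGMT, which removes alkyl groups from guanine in DNA, UCHL1, a deubiquitinase of neurons, SLC19A1, a folate carrier, EPHX2, a lipid epoxide hydrolase, SULF2, a heparan sulfatase, and NTN1, an axon guidance ligand.

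Cancer-testis genes are normally active in germ cells and are switched on in some cancers. Of 55, 32 had a row, 8 (25%) reached 1 CPM in all 4 cultures, 12 were at 0 and 3 exceeded 10 CPM. Over all genes in the table, the shares were 71.4% at 1 CPM, 5.5% at 0 and 51.7% at 10 CPM. XAGE1A and XAGE1B were at 45.2, 44.7, 47.2 and 67.5 CPM and 82.9, 71.3, 65.4 and 46.02 CPM, but these copies are near identical and their reads cannot be assigned with certainty. MAGEC1 was at 15.1, 14.3, 14.03 and 13.1 CPM. PRAME, SSX2 and MAGEA10 were among the members at 0.

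Markers of other cell types were scattered. PTPRC (CD45, carried by all leukocytes) was at 0.537, 0.650, 0.484 and 0.228 CPM, CD14 at 1.23 CPM, and CD3E and ITGAM had no row, so that 4 of 8 immune genes with a row reached 1 CPM. Those 4 were CD68 (172 CPM), a lysosomal protein, CD8A (3.098 CPM), CD74 (377, 339.6, 366 and 339 CPM) and HLA-DRA (65.2, 63.7, 59.4 and 66.2 CPM), the last 2 belonging to MHC class II antigen presentation. Of 12 class II genes with a row, a list compiled after these values were seen, 10 reached 1 CPM, among them HLA-DPA1 (28.1 ± 1.15 CPM), HLA-DMA (17.4 ± 1.08 CPM) and the class II activator CIITA (4.42, 4.18, 4.35 and 3.88 CPM). HLA-DRB1 and HLA-DRB5 (19.2 and 2.34 CPM) share reads and are uncertain.

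Of 9 endothelial genes with a row 6 reached 1 CPM, led by the junction protein ESAM at 144, 145, 140.4 and 130.1 CPM and the guidance receptor ROBO4 at 124, 111, 113 and 106 CPM. VWF, a defining endothelial gene, was at 0.716, 0.118, 0.484 and 0.171 CPM, PECAM1 at 3.41 CPM, TIE1 at 3.14 CPM, and ERG was at 0. CDH5 had no row. Of 11 fibroblast genes 3 reached 1 CPM, COL1A1 and PDGFRB, already given, and FBLN1 at 1.62 CPM. DCN, LUM and POSTN, defining fibroblast genes, were at 0.0300, 1.01 and 0.0151 CPM, and SFRP2 was at 0. MITF, the melanocyte factor, was at 31.1, 31.3, 30.7 and 34.7 CPM, while PMEL was at 1.71 CPM and TYRP1 under 3 reads in all 4 libraries. Of 5 hepatic and neural genes with a row, 1 reached 1 CPM, GFAP at 2.601 CPM, and AFP was at 0. For none of these cell types did all genes with a row reach 1 CPM. The same held for the luminal, basal and mesenchymal lists. The share was 66.7% for endothelial and melanocytic genes, 50% for immune and 27.3% for fibroblast genes, beside 71.4% over all genes. These counts therefore cannot tell whether such cells were present.

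Promoters were examined for sequence features, since CpG-rich promoters are common among genes active in many tissues. A promoter of 250 bases before to 50 bases after the start was matched in RefSeq (GRCh38.p14) for 11221 protein-coding genes of the table. CpG-rich was defined as an observed-to-expected CpG ratio of at least 0.6 with at least 50% G and C. Among 9345 genes at 1 CPM or more in all 4 cultures 82.8% had a CpG-rich promoter, whereas among 613 genes under 0.1 CPM in all 4 it was 55.6%, and over all 11221 genes it was 78.1%. For the E-box CACCTG, searched on both strands (CAGGTG on the other), the shares were 17.7% and 18.6%, with 18.1% over the same 11221 genes and 20.6% over all 27305 promoters of the reference table. At these limits the E-box share thus hardly separated expressed from silent genes, while the CpG share did, as a description without a test. The E-box share was lower at higher levels, at 16.6% of 7283 genes at 10 CPM or more and 14.4% of 1680 genes at 100 CPM or more. The promoters of AXL and ZEB1 each held this E-box, and those of VIM, EGFR, CD44, ERBB2, CLDN4 and CLDN7 did not. No match says only that these letters are not in this window.

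Single genes departed from the average in both directions. To show this, the 250 bases upstream of the start are given for MGMT and UCHL1, both at 0 in all 4 cultures and CpG-rich, and for AXL and CXCL8, both abundant and CpG-poor. All 4 lie on the plus strand and are printed 5′ to 3′ from RefSeq, with every CG in capitals.
MGMT (chr10:129466991-129467240): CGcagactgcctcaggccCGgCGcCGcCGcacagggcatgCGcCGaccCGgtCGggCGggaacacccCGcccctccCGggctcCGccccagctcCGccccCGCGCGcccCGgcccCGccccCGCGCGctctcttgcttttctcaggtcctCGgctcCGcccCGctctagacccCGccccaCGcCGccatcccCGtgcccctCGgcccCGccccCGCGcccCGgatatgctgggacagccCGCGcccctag
UCHL1 (chr4:41256678-41256927): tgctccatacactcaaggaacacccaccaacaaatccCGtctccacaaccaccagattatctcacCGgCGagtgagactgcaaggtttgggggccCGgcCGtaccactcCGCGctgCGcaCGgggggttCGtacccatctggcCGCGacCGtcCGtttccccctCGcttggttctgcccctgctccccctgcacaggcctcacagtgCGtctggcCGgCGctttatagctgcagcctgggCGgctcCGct
AXL (chr19:41218973-41219222): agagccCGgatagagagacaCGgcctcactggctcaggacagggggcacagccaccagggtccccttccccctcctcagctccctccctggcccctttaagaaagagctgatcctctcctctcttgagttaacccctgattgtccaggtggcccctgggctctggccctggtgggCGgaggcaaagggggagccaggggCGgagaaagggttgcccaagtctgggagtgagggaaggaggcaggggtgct
CXCL8 (chr4:73740319-73740568): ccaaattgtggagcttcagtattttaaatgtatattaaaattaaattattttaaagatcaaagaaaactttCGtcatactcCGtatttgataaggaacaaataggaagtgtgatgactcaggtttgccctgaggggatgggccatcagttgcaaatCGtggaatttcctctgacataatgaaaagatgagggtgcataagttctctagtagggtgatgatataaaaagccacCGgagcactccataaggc
The upstream window of MGMT held 36 CG and that of UCHL1 20, beside 4 in AXL and 4 in CXCL8. AXL shows that a low CpG count did not follow from a low G and C content, since its window was 64.4% G and C, the same as that of UCHL1, while CXCL8 was at 37.6%. DNA methylation was not measured in these samples.

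The 4 cultures were close to each other but differed by more than counting. On the scale of log2(CPM + 1), over 9417 genes with a mean of 10 CPM or more, Pearson correlations across genes lay between 0.989 and 0.996 for the 6 pairs of cultures. Genes are not independent replicates, and these values are a description. Controls 1 and 2 were the closest pair, with an SD of the log2 difference of 0.128, and controls 1 and 4 the furthest, with 0.221. The median CV of these genes was 5.63%, while the reads behind the values would give 3.59% by counting alone. In each of the 6 pairs the SD of the log2 difference exceeded the 0.0809 to 0.0821 that counting alone would give, and the median difference was 1.05 to 1.92 counting SDs, where counting alone gives 0.674. By their titles the libraries were counted as 4 samples. The excess over counting does not show that they were separate cultures, since it may be partly technical.

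Relative to counting, the spread grew with the level: the median ratio of the 2 CVs was 1.21 at 1 to 10 CPM and 6.53 above 1000 CPM. Genes with a mean of 1 to 10 CPM had a median CV of 15.6% beside 12.7% from counting, and genes of 10 to 100 CPM had 6.204% beside 4.196%. From 100 to 1000 CPM the median CV was 4.40% beside 1.87%, and above 1000 CPM it was 3.80% beside 0.629%. The spread of abundant genes thus levelled off near 4%, and for genes under 10 CPM counting made up most of it. In all, 1248 of the 9417 genes (13.3%) had a CV at least 3 times that of counting. The count fell to 625 without control 4 and lay between 625 and 1752 over all single left-out cultures.

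**Figure D4:**
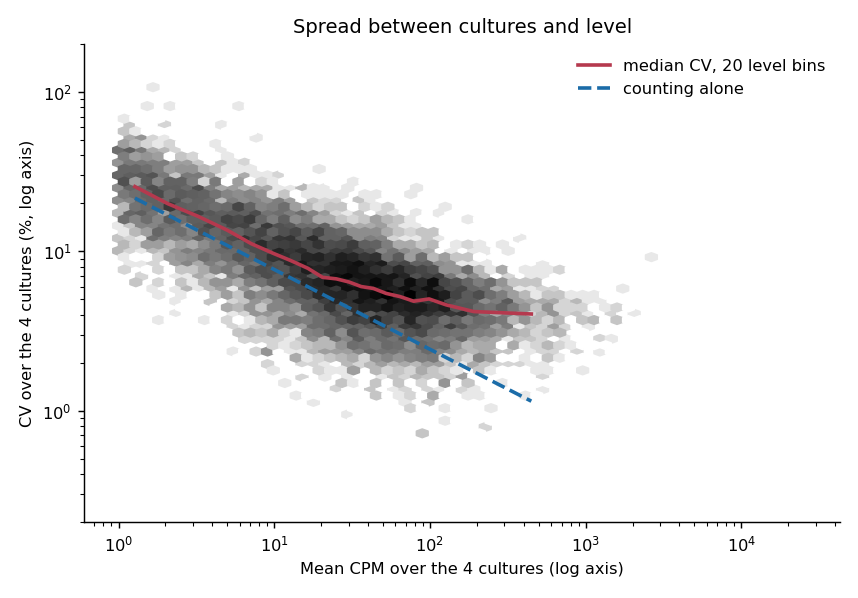
CV over the 4 cultures against mean CPM for genes with a mean of 1 CPM or more, both axes logarithmic, with the density of genes in grey hexagons, the median CV in each of 20 level bins as a solid line and the CV that counting alone gives as a dashed line. The solid line runs close above the dashed one below 10 CPM and runs flat near 4% above 100 CPM.

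Among genes whose values were whole reads in all 4 cultures, the largest spread in excess of counting was that of MIF, a cytokine and tautomerase, at 32.7, 35.9, 18.1 and 14.1 CPM. PHLDA2, an imprinted gene, was next at 41.02, 42.7, 25.04 and 19.1 CPM, followed by CAPN15 (20.5, 21.7, 13.9 and 10.2 CPM) and UBALD1 (15.7, 16.2, 10.6 and 7.92 CPM). JUNB, an AP-1 subunit, was also among the 10 at 37.6, 40.97, 25.3 and 23.4 CPM. In all 10, controls 1 and 2 were both above controls 3 and 4. Measured as a multiple of counting, the largest spreads were those of MT-ND4, PLEC, FLNA, MT-CO2 and FASN. PLEC (plectin, a cytoskeletal linker) was lowest in control 4, at 796, 789, 658 and 539.8 CPM. FASN (fatty acid synthase) was lowest there too, at 632, 619.6, 534 and 410.3 CPM. MT-ND4, a mitochondrial gene of complex I, was highest in control 4, at 2241, 2383, 2483 and 2819.7 CPM. Without the requirement of whole reads, the 10 largest spreads belonged to 3 protein-coding genes, 2 pseudogenes, 1 lncRNA and 4 genes with no RefSeq class. AC008878.3 was at 0, 0, 42.2 and 26.6 CPM, RPS3AP26, a ribosomal protein pseudogene, at 68.6, 48.5, 60.5 and 3.73 CPM and LINC00261 at 4.702, 23.7, 10.5 and 29.1 CPM. Only 1 of these 10 had whole reads in all 4, namely MIF, and the values of the other 9 are uncertain.

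The steadiest genes reached a spread below that of counting. PTX3, a secreted pattern recognition protein, was at 239, 239.8, 238 and 240.1 CPM, a CV of 0.313%. DUSP5, a phosphatase of ERK, was at 294, 291, 293 and 292 CPM, and PLK1, a mitotic kinase, at 24.9, 24.9, 25.2 and 25.1 CPM. With 4 cultures some genes have such low values by counting variation, so these are the lowest of 9417 and are not shown to be less variable than other genes. Among the markers, CVs were 0.962% for VIM, 3.56% for EGFR, 4.25% for CD44 and 4.78% for KRT18. ERBB2 varied more, with a CV of 9.51% beside a median of 6.204% for genes of 10 to 100 CPM, and CDH1, at 10 to 16 reads, had 22.7% beside 28.3% from counting.

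Base composition moved with the differences between cultures. Each gene was assigned the G and C content of its longest GENCODE transcript, and its deviation in each culture from its mean over the 4 was taken as log2(CPM + 1). Genes were divided into 5 equal groups by this content. In the group with the highest G and C content (56.7% to 71.2%), the median deviation was 0.093 in control 1 and −0.124 in control 4. In the lowest group (29.2% to 40.02%) it was −0.059 in control 1 and 0.084 in control 4. Across 9393 genes the Spearman correlation of G and C content with the deviation was 0.60 in control 1, 0.09 in control 2, 0.18 in control 3 and −0.68 in control 4. The 10 genes of largest spread with whole reads had a median G and C content of 64.4%, beside 47.0% over all these genes. The 10 genes of largest spread without the requirement of whole reads had 43.1%. That median leaves out AC008878.3, CU633906.1 and AL121722.1, for which no G and C content was available. Controls 1 and 4 also held the highest or the lowest value in most of the 1248 genes of large spread, with control 1 highest in 484 and control 4 in 517, and control 1 lowest in 430 and control 4 in 598. Whether base composition accounts for the spread of a given gene was not tested.

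**Figure D5:**
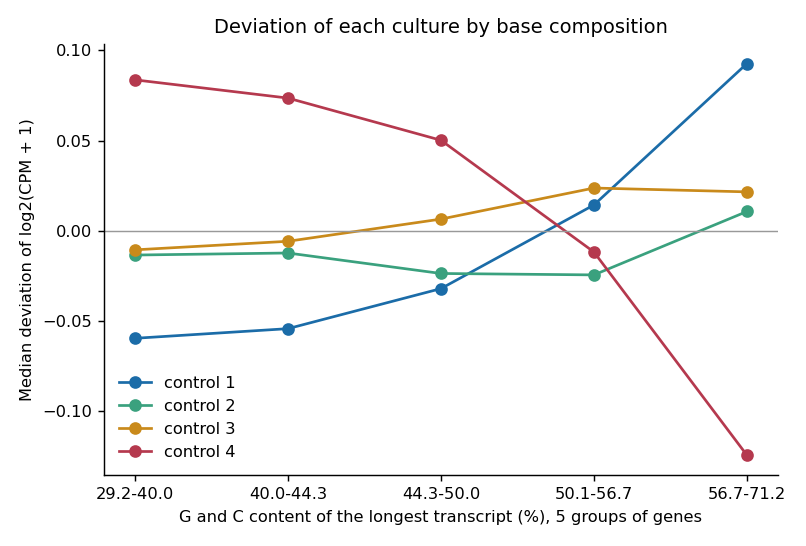
Median deviation of log2(CPM + 1) from the mean over the 4 cultures, for 5 groups of genes ordered by the G and C content of their longest transcript, with 1 line for each control culture; each group holds 1878 or 1879 genes with a mean of 10 CPM or more. The line of control 1 rises from −0.059 to 0.093, that of control 4 falls from 0.084 to −0.124, and controls 2 and 3 stay between −0.024 and 0.024.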

How the data were processed

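RNA-Seq libraries were available for 4 control cultures of MDA-MB-231 cells, and their group and number were taken from the sample titles. The authors deposited 1 table of CPM values with 17681 rows. The processing notes of the submitters name edgeR and hg38. For the tumors, the study's methods give Trimmomatic, TopHat with hg19, a filter for genes at 0.5 CPM in at least 2 samples, and CPM with TMM factors. Values normalised in that way also entered its gene set analyses, which covered cell lines. Which of these steps were applied to this table is not stated. Here 2966 rows did not reach 0.5 CPM in 2 of the 8 columns, so the table does not meet that filter. The columns summed to 986730 to 1010402 CPM. The aligner and the counting tool of this table are not given in the sources used here. Of the 8 sample columns, the 4 control columns were used, and no column belonged to another series.

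Rows with the same symbol were averaged (32 symbols with several rows, 18 rows of pseudoautosomal copies), which left 17649 genes. The value of 1 read was taken from the steps of each column. Between 88.0% and 88.4% of the values above 0 lay within 0.1 read of a whole number, so the reads behind the table are estimates, no count test was run, and an interval or limit from them covers counting error only. Levels per kilobase used the union of exons of GENCODE release 44 in its GRCh37 mapping, lengths only, for 17498 genes (99.1%). Positions and promoters were those of RefSeq (GRCh38.p14). The CV was compared with 1 divided by the square root of the mean reads, and this calculation was tested on simulated data. Python 3.11.15, pandas and matplotlib were used.

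The genes, lists and alternatives were chosen with earlier results of these data known. Members of the hand-made lists could be named (the 3 highest per kilobase, those at 0 and those with a described role), as could the 20 highest genes by CPM and by CPM per kilobase, the 10 largest and 10 smallest spreads, genes within 1 Mb of CDKN2A and family members above 10 CPM. Other genes were named after their values were seen: the ER chaperone, imprinted and MHC class II lists, the single genes at 0 shown with them, the neighbours of the HOXA and CDKN2A blocks, and the genes whose spread is a large multiple of counting. Alternatives were other detection levels, scalings, lengths, filters and pseudocounts, rows kept separate, and each culture left out. The values of some list members are not reported here.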

Additional observations from a re-analysis of the deposited data

Results flagged for a closer look

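For 214 named genes, 10 shares of CPM and 3 library measures, the gap between the highest or lowest culture and its nearest neighbour was divided by the range of the 4 cultures. In 13 of these 227 values (5.727%) the quotient passed Dixon's limit for 4 values, which chance passes in about 1 of 20 groups. Genes with no reads in any culture had no range and could not pass, yet they are among the 227 values. The 5.727% therefore cannot be set against that rate. The number of estimated reads was among them (quotient 0.888), with control 4 the deepest library at 17729515 reads and the other 3 between 16559917 and 16690411.

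For 5 genes the quotient was 1 because a read or more was counted in 1 culture and none in the other 3: COL3A1 (0, 0, 0.0605 and 0 CPM), FOXA1 (0, 0.0591, 0 and 0 CPM), MSR1 (0.179, 0, 0 and 0 CPM), PGR (0, 0, 0 and 0.114 CPM) and POSTN (0, 0, 0.0605 and 0 CPM). All of these are at most 3 reads. HLA-DRB5 had a quotient of 0.961 (2.28, 2.52, 2.29 and 2.28 CPM), and XAGE1A had 0.887 (45.2, 44.7, 47.2 and 67.5 CPM). Both share reads with near-identical copies. HOXD1 had 0.938, at 6.798, 7.804, 7.74 and 7.75 CPM. LDHA had 0.908, at 510.4, 513, 512 and 542 CPM. TIMP1 had 0.861, at 187, 170.4, 172 and 173 CPM. MITF had 0.834, at 31.1, 31.3, 30.7 and 34.7 CPM, and PEG10 had 0.832, at 109, 109, 111 and 121 CPM. No cause was tested for these values.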

How the results depend on the processing

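No paired analysis was possible because no groups were compared and no test was run. Of 494 values recomputed under other settings for 78 results, 439 moved by less than the spread between cultures, the counting interval or, for counts, 1.5 times. Of the 494, 296 came from leaving out a single culture, and 9 of those 296 were outside these limits. For marker levels and the share of the most abundant genes, leaving out a culture could not pass the limit. Rescaling could not change that share. The count of 439 is therefore no measure of robustness. Genes at 1 CPM or more in every culture numbered 12599, and 12662 to 12694 with single cultures left out, while 13418 reached 0.5 CPM and 11753 reached 2 CPM.

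The other 55 values were these. Without mitochondrial genes, the 100 most abundant genes held 19.5% of CPM. With 1 CPM per kilobase as the limit, 10 transport, 3 endothelial, 1 fibroblast, 1 melanocytic, 0 hepatic and neural and 3 HOX genes passed, and with 2 CPM 1 melanocytic and 4 HOX genes did. The median CV was 6.85% from a mean of 1 CPM, 4.39% from 100 CPM and 8.92% without a filter, and 4.46% to 5.91% with single cultures left out, the lowest without control 4. The median SD of log2(CPM + 1), 0.0792, was 0.0964 without a filter and 0.0630 to 0.0830 with single cultures left out, the lowest without control 4. Genes at 3 times the counting spread numbered 625 without control 4 and up to 1752 without another culture. Restricting the spread measures to genes with whole reads, a setting added after the data were seen, left both within the limits.

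The longest transcript in place of the union of exons raised the median over all genes to 3.55 CPM per kb. List medians then were, in CPM per kb, 93.2 for the markers, 1.61 for luminal, 2.49 for basal, 3.30 for tight junction, 13.8 for adherens junction, 7.20 for mesenchymal and 20.4 for stem-like genes. They were 3.37 for nuclear receptors, 0.665 for receptor kinases, 7.88 for receptors of glycation products, 1.90 for growth factors, 2.22 for cytokines, 1.65 for proteases, 17.5 for protease inhibitors and 3.55 for matrix genes. They were 3.04 for transport, 18.3 for surface targets, 7.16 for drivers, 3.37 for lineage factors, 0.862 for endothelial, 0.0108 for fibroblast, 0.679 for melanocytic and 0.103 for hepatic and neural genes. They were 0.0122 for HOX, 13.9 for proliferation, 180.80 for ER chaperone, 2.39 for MHC class II and 0.226 for imprinted genes. In this setting PTK7 stood above MERTK and PPARD above NR3C2. With single cultures left out, the median was 0.0297 to 0.0550 CPM per kb for cancer-testis genes and 0 to 0.0123 for HOX genes.

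The share of CpG-rich promoters among expressed genes was 81.8% at 0.5 CPM, 85.7% at 10 CPM and 79.5% for the upstream bases alone, and their E-box share was 16.6% at 10 CPM and 15.4% for the upstream bases. Below about 10 CPM counting limits the precision, and a gene at 0 may hold up to 3 reads. The causes of these changes were not tested, other than the settings' own construction.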

Other observations

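Beyond the blocks on chromosomes 7, 9, 12, 14 and 15 given above, further runs of at least 5 consecutive genes of the table stayed under 3 reads in all 4 cultures. On chromosome 11, ANO3, MUC15, SLC5A12, FIBIN, BBOX1 and BBOX1-AS1 formed a run of 6 over 1031 kb, with 2 of them at 0. On chromosome 5, PCDHA8 and PCDHA10 to PCDHA13, clustered protocadherins with shared exons, formed a run of 5. On chromosome 19, ZNF98, ZNF492, ZNF849P, ZNF99 and ZNF730, zinc finger genes of 1 cluster, formed another run of 5. Other runs on chromosomes 14, 15 and 16 included pseudogenes, immunoglobulin segments and, on chromosome 16, the genes TP53TG3B, TP53TG3C and TP53TG3F. In all, 11 such runs were counted, and the number that gene order alone would give was not computed.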
